A study of Vigna unguiculata subsp. sesquipedalis with 24 samples.

Results

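The unigenes described here are UP12_29343, UP12_29344 and UP12_29616, the 3 of 29471 unigenes on a custom asparagus bean array whose annotation names them abscisic acid receptor PYL5. A unigene is a transcript sequence assembled from expressed sequence tags. The annotation came from the study's tables of drought-regulated genes, in which UP12_29343 stood for roots and the other unigenes for leaves and roots. These tables were made from the same arrays, so a PYL5 unigene that did not respond would not have been found, and the drought changes below are not independent evidence of a response.

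Asparagus bean (Vigna unguiculata ssp. sesquipedalis) is a vegetable cowpea grown for its long pods. The accessions were the landraces B47, labelled anisohydric like, and B128, labelled isohydric like. Those words are the submitters' and refer to how plants hold leaf water in dry soil, which the arrays do not measure, so B47 and B128 are called by name below. All seedlings were well irrigated and 16 days old when treatment began, at 2 plants per pot. Irrigation was then withheld from the drought plants and continued for the well-watered plants. On day 15 of treatment, side leaflets of the first trifoliate and roots were taken, with the plants of a pot mixed. Each of the 8 groups of accession, organ and treatment held 3 arrays, 24 in all, which the labels call biological replicates.

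Abscisic acid (ABA) is the hormone by which plants signal water deficit. Receptors of the PYR/PYL/RCAR family bind ABA and then inhibit clade A protein phosphatases 2C (PP2C). Without ABA these phosphatases hold SnRK2 kinases inactive, and with ABA the released kinases phosphorylate ABF transcription factors and, in guard cells, ion channels. In Arabidopsis, PYL5 is 1 such receptor, and raising its level there makes plants more sensitive to ABA and more resistant to drought.

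The labels of the 6 drought root arrays name root in 1 field and leaf in another, and they were taken as roots. Of 19 photosynthesis unigenes, 18 were higher in all drought leaf arrays than in all drought root arrays, and 18 were likewise higher in well-watered leaves. The exception, the Rubisco small chain 1A unigene UP12_16180, overlapped between the drought organs and was higher in all well-watered root arrays than in all well-watered leaf arrays. Of 3 root-marker transporter unigenes, which the study lists as drought-lowered in roots, 2 separated well-watered roots from leaves, but in drought none was higher in all root arrays and 2 were higher in all leaf arrays. Replicate arrays correlated at r of 0.960 to 0.994 across unigenes. The array medians lay between 1506 and 1581 intensity units. In whole organs, fewer cells of a type and less RNA per cell cannot be told apart.

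UP12_29343 had the smallest fall of the 3 unigenes in each of the 4 drought comparisons, between 14.2-fold and 17.3-fold. In B47 leaves the normalized intensity was 5509.7, 2525 and 5172 on the well-watered arrays and 168, 296 and 505 on the drought arrays. In B128 leaves it was 1474, 1879 and 3983 in well-watered plants and 155, 145 and 105 under drought. In both accessions the lowest well-watered leaf array lay above the highest drought leaf array.

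In B47 roots UP12_29343 was at 7898, 6254 and 6782 in well-watered plants and at 367, 386 and 457 under drought. In B128 roots it was at 7856, 5114 and 3793 against 381, 326 and 389. The root drought arrays were close to each other in both accessions. In each accession the drought root arrays did not overlap the well-watered root arrays. The fall was 14.2-fold in B47 leaves (log2 change -3.83, SE 0.39, limma adjusted p = 3.22e-07) and 16.7-fold in B128 leaves (-4.07, adjusted p = 1.61e-07). In roots it was 17.3-fold in B47 (-4.11, limma adjusted p = 8.56e-08) and 14.7-fold in B128 (-3.87, adjusted p = 2.07e-07).

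UP12_29344 fell furthest in leaves. In B47 leaves its intensity was 4137, 2009.7 and 3874 in well-watered plants and 29.2, 31.5 and 34.3 under drought. In B128 leaves it was 1039.6, 1495 and 2871 against 23.9, 35.9 and 40.5. The drought leaf arrays of both accessions thus fell within 1 narrow low range. This was a 101-fold fall in B47 leaves (-6.65, SE 0.37, limma adjusted p = 1.63e-10), the 15th largest fall among the 29471 unigenes, and a 50.5-fold fall in B128 leaves (-5.66, adjusted p = 1.62e-09).

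In B47 roots UP12_29344 was at 6311, 5209 and 4922 in well-watered plants and at 239, 160 and 178 under drought. In B128 roots the values were 6736, 4840.0 and 3344 against 208, 92.0 and 199. All 6 drought root arrays were above all 6 drought leaf arrays. The fall was 28.8-fold in B47 roots (-4.85, limma adjusted p = 5.87e-09) and 30.6-fold in B128 roots (-4.93, adjusted p = 5.12e-09).

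UP12_29616 had its highest values in well-watered roots and fell furthest there. In B47 roots its intensity was 13019, 11229 and 12441 in well-watered plants and 73.9, 48.3 and 37.9 under drought. In B128 roots it was 11485, 9877 and 6483 against 29.0, 47.7 and 30.7. Every well-watered root array exceeded every other array for this unigene. The fall was 238-fold in B47 roots (-7.89, SE 0.34, limma adjusted p = 2.63e-12) and 259-fold in B128 roots (-8.02, adjusted p = 1.83e-12), the 12th and the 15th largest falls of all unigenes in those comparisons.

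In B47 leaves UP12_29616 was at 1462, 959.9 and 1624 in well-watered plants and at 13.2, 22.0 and 23.3 under drought. In B128 leaves the values were 767, 369 and 1018 against 20.5, 18.3 and 18.7. The groups did not overlap, and the drought leaf arrays of the accessions overlapped each other. The fall was 69.5-fold in B47 leaves (-6.12, limma adjusted p = 1.36e-10) and 34.6-fold in B128 leaves (-5.11, adjusted p = 1.68e-09).

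Calls needed a change of 2-fold or more and a limma adjusted p of at most 0.01. All 3 unigenes were called lower in each of the 4 drought comparisons. Among all unigenes, 8.18% and 8.35% were called lower in leaves of B47 and B128 and 11.6% and 11.2% in their roots, and 532 unigenes (1.81%) were called lower in all 4. The groups did not overlap in any of the 12 member comparisons, as against 25.2%, 21.4%, 24.6% and 21.9% of all unigenes lower without overlap in the same order of comparisons.

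**Figure D1:**
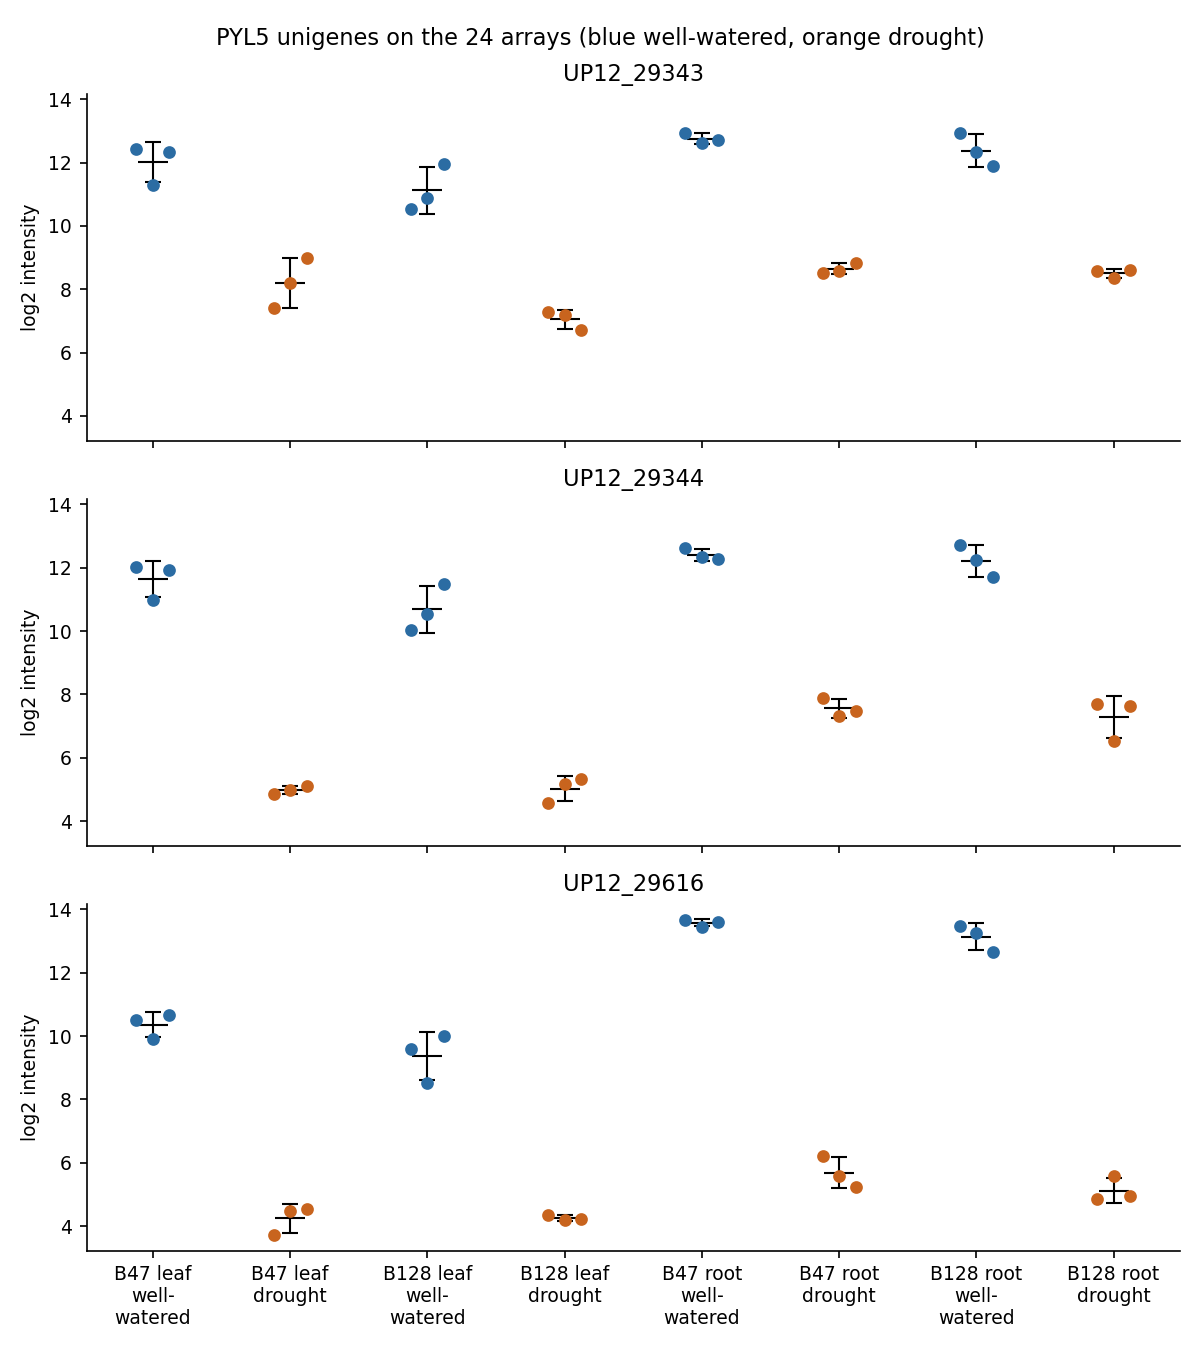
Log2 normalized intensity of UP12_29343, UP12_29344 and UP12_29616 on each of the 24 arrays, by group. Points are arrays (blue well-watered, orange drought), black bars are the mean ± SD of 3 arrays, and for each unigene all well-watered arrays lie above all drought arrays.

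The size of the falls of UP12_29344 in leaves and of UP12_29616 depended on values near the bottom of the scale. In drought leaves only 1.67% to 6.35% of unigenes had a lower value than UP12_29616 on the same array, and 6.74% to 10.0% a lower value than UP12_29344. In drought roots 7.37% to 13.2% were lower than UP12_29616. The 5th percentile of an array lay between 19.5 and 23.6, and no background level or detection call was used here. With intensities under 64 set to 64, UP12_29616 in leaves changed by -4.36 in B47 and -3.37 in B128 on the log2 scale, and UP12_29344 by -5.64 and -4.69. UP12_29616 in roots then changed by -7.51 in B47 and -7.14 in B128, with all but 1 of its 6 drought root arrays under the floor. All remained called. UP12_29343 had no value under 64.

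**Figure D2:**
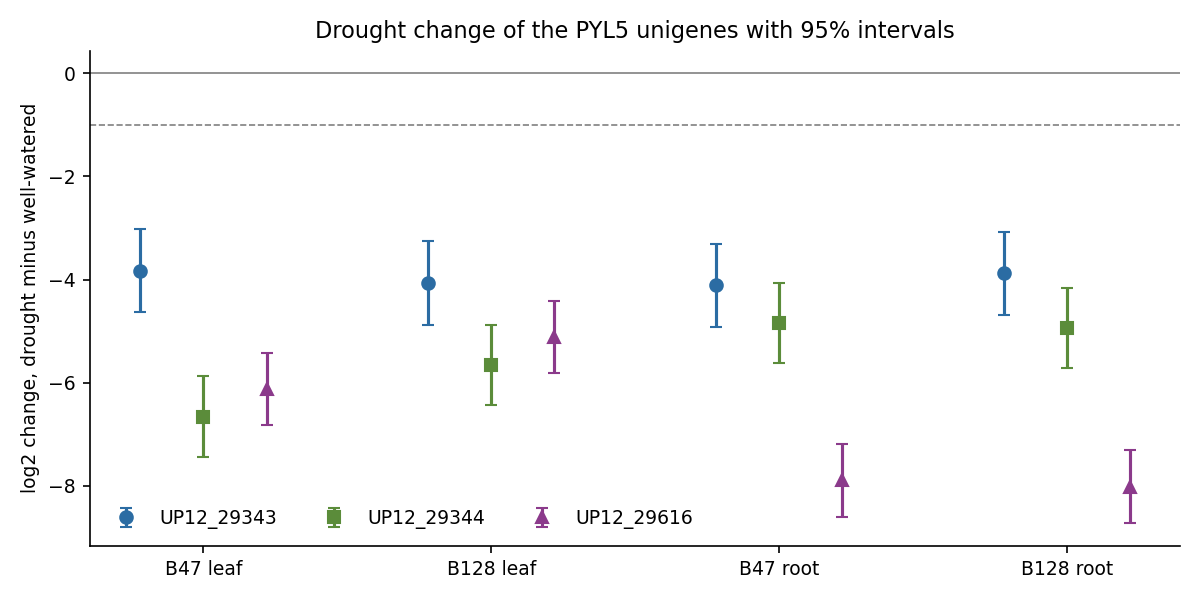
Log2 change, drought minus well-watered, of the PYL5 unigenes in each accession and organ. Symbols are limma estimates with 95% intervals, the solid line marks no change and the dashed line a fold change of 2, and UP12_29616 in roots lies lowest, at -7.89 and -8.02.

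For each unigene the 4 well-watered groups stood above the 4 drought groups. The order among well-watered groups was B47 root, B128 root, B47 leaf and B128 leaf in all 3. The mean log2 intensity of UP12_29343 in this order was 12.76 ± 0.17, 12.38 ± 0.53, 12.02 ± 0.63 and 11.12 ± 0.75 (SD, n = 3 each). Each of these groups overlapped with the next.

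That of UP12_29344 was 12.41 ± 0.19, 12.22 ± 0.51, 11.64 ± 0.58 and 10.69 ± 0.74 (SD, n = 3 each), again with every neighbour overlapping. That of UP12_29616 was 13.58 ± 0.11, 13.14 ± 0.43, 10.36 ± 0.40 and 9.37 ± 0.76 (SD, n = 3 each). Here the roots stood apart from the leaves without overlap, while the accessions overlapped within each organ.

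Under drought, UP12_29343 was at 8.65 ± 0.17 in B47 and 8.51 ± 0.14 in B128 roots, and at 8.19 ± 0.79 in B47 and 7.05 ± 0.30 in B128 leaves (log2, SD, n = 3 each). Only the last of these groups lay below its neighbour without overlap. UP12_29344 was at 7.56 ± 0.30 in B47 roots and 7.29 ± 0.66 in B128 roots, and at 5.03 ± 0.40 in B128 leaves and 4.98 ± 0.12 in B47 leaves (log2, SD, n = 3 each). UP12_29616 followed the same order, at 5.68 ± 0.49, 5.12 ± 0.39, 4.26 ± 0.09 and 4.24 ± 0.45 (log2, SD, n = 3 each). For both, the drought roots did not overlap the drought leaves, and the accessions overlapped within an organ.

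Root and leaf levels of UP12_29616 differed most in well-watered plants. The root exceeded the leaf by 3.21 in B47 (log2, limma adjusted p = 8.33e-08) and by 3.77 in B128 (adjusted p = 8.33e-09). Under drought the difference was 1.44 in B47 (adjusted p = 0.00105, called) and 0.87 in B128 (adjusted p = 0.0319, not called). With the floor of 64 the B47 drought difference was 0.0695 (adjusted p = 0.899), since most of these arrays lay under it.

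UP12_29344 was higher in drought roots than in drought leaves by 2.58 in B47 (log2, limma adjusted p = 5.77e-06) and by 2.26 in B128 (adjusted p = 2.99e-05). With the floor of 64, under which all its drought leaf arrays lay, these differences were 1.56 and 1.29. In well-watered plants the root exceeded the leaf by 1.54 in B128 (adjusted p = 0.0013), and the B47 difference of 0.78 was not called (adjusted p = 0.0771). For UP12_29343 the differences were 1.26 in well-watered B128 (limma adjusted p = 0.00769) and 1.45 in drought B128 (adjusted p = 0.00295), both called. Those in B47 were 0.74 (adjusted p = 0.104) and 0.46 (adjusted p = 0.319).

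Among all unigenes 17.9% were called higher in roots in well-watered B47, 18.4% in well-watered B128, and 17.1% in either accession under drought. The well-watered B128 call of UP12_29343 rested on overlapping groups. It was lost without any 1 of 4 of the 6 arrays, namely B128 leaf replicates 1 and 2 and B128 root replicates 1 and 2, with limma adjusted p between 0.0174 and 0.0511. The well-watered B128 call of UP12_29344 was lost without leaf replicate 1 (1.20, adjusted p = 0.012) or root replicate 1 (1.29, adjusted p = 0.0107). The drought B128 call of UP12_29343 was lost without leaf replicate 3 (1.28, adjusted p = 0.0176) and without root replicate 1 or 3 (adjusted p = 0.011 and 0.0117). When arrays were scaled to the yeast controls, that call (0.84, limma adjusted p = 0.0555), the well-watered B128 call of UP12_29343 (1.09, adjusted p = 0.0164) and the drought B47 call of UP12_29616 (0.75, adjusted p = 0.0771) were lost. The mean log2 of the yeast entries was 15.01 and 15.09 in drought roots and 14.32 and 14.47 in drought leaves of B47 and B128. Its part in these differences was not tested beyond this scaling.

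The drought response itself was then compared between organs, as the change in roots minus the change in leaves. UP12_29616 fell more in roots, by -2.90 in B128 (log2, SE 0.48, limma adjusted p = 0.000141) and by -1.77 in B47 (SE 0.48, adjusted p = 0.00805), and both were called. Lower calls of this kind were made for 7.92% of unigenes in B128 and 8.81% in B47. The B47 call was narrow. Omitting any of 9 arrays, of the 12 in this comparison, ended it, with values from -1.85 to -1.55 and limma adjusted p from 0.0121 to 0.0254. The arrays whose removal kept it were leaf well-watered replicate 3, leaf drought replicate 1 and root drought replicate 1. It was also lost with array weights (-0.92, adjusted p = 0.0166) and with limma's treat method at a 2-fold limit (adjusted p = 0.514). With the floor of 64, the differences were -3.14 in B47 and -3.77 in B128. The floor set every drought leaf array and most drought root arrays of UP12_29616 to 64. These differences therefore mostly restate the well-watered root minus leaf gaps of 3.21 and 3.77 with the sign reversed. They cannot show whether the response differs between organs.

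UP12_29344 had the opposite sign. Its response in roots minus that in leaves was 1.81 in B47 (SE 0.52, limma adjusted p = 0.013) and 0.72 in B128 (adjusted p = 0.316), neither called. With the floor of 64 the values were 0.79 and -0.25. The floor raised every drought leaf array of UP12_29344 and no drought root array, so it shortened only the leaf fall. With leaf values this near the bottom of the scale, neither set of values can show whether the response of UP12_29344 differs between organs. For UP12_29343 the difference was -0.28 in B47 (adjusted p = 0.726) and 0.19 in B128 (adjusted p = 0.823).

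Within an array, the log2 difference between 2 unigenes does not depend on the scaling of that array, and its change with drought compares their responses. In roots UP12_29616 fell more than UP12_29343 by -3.96 (-3.78 in B47, -4.14 in B128) and more than UP12_29344 by -3.06 (-3.05 in B47, -3.08 in B128). UP12_29344 fell more than UP12_29343 by -0.90 in roots (-0.74 and -1.06). Each gave the smallest p that the two-sided exact permutation test of 400 arrangements allows, p = 0.005, or 0.006 after adjustment over the 6 tests.

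In leaves UP12_29344 fell more than UP12_29343 by -2.21 (-2.83 in B47, -1.59 in B128, exact permutation p = 0.005, adjusted p = 0.006). UP12_29616 also fell more than UP12_29343 there, by -1.67 (-2.29 in B47, -1.05 in B128, exact permutation p = 0.005, adjusted p = 0.006). That difference was lost with the floor of 64 (0.0819, exact permutation p = 0.85). The leaf responses of UP12_29616 and UP12_29344 differed by 0.54 (exact permutation p = 0.09, adjusted p = 0.09). This became 0.76 without B128 leaf well-watered replicate 1 (exact permutation p = 0.015) and 1.30 with the floor (exact permutation p = 0.005). The floor set every drought leaf array of both unigenes to 64. The 1.30 therefore restates their well-watered leaf gaps (-1.27 in B47, -1.32 in B128) with the sign reversed. It cannot show whether their responses differ. The 4 differences in which UP12_29344 was set against UP12_29343, or in which roots were compared, kept their sign and p with the floor, and the leaf difference of UP12_29344 and UP12_29343 was then -1.21.

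**Figure D3:**
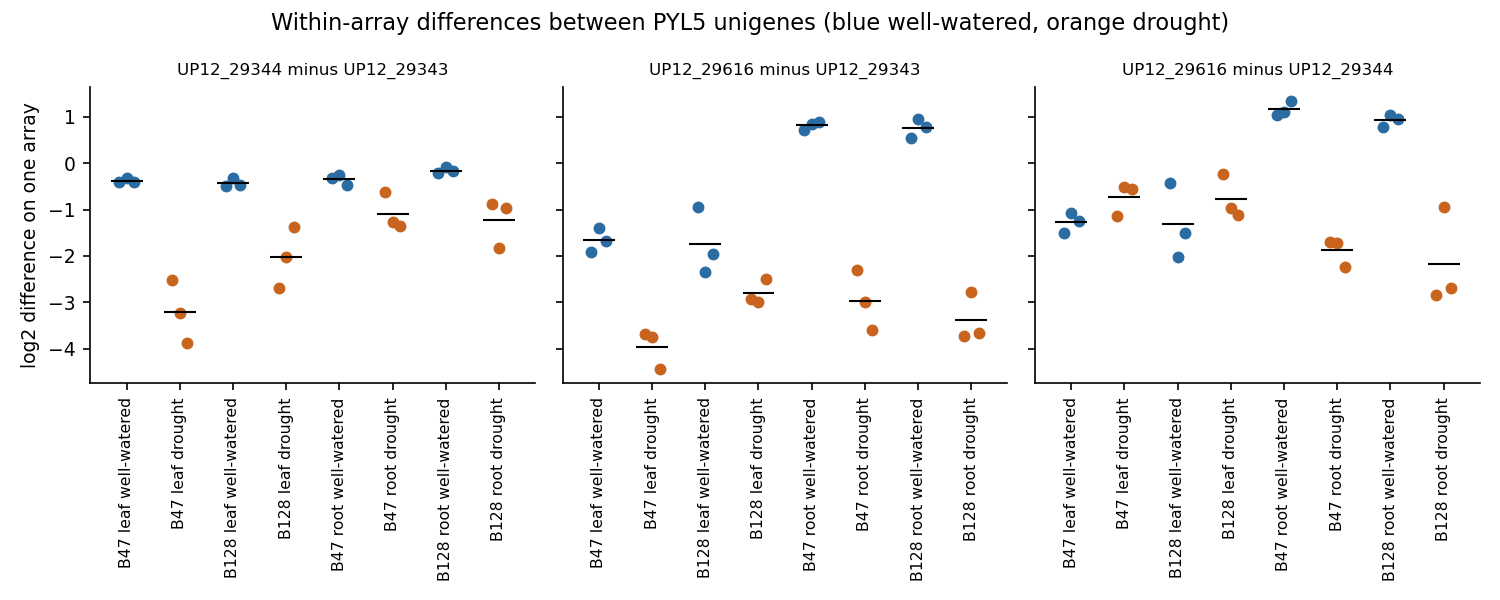
Log2 difference between PYL5 unigenes on the same array, for the 3 pairs and 8 groups. Points are arrays (blue well-watered, orange drought) and bars group means. Zero has no meaning between different probe sets, and the shift from blue to orange is the difference in response, largest for UP12_29616 minus UP12_29343 in roots (-3.96).

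Between accessions, the size of the drought response was not called different for any of the 3 unigenes in either organ. In leaves B128's response less B47's was -0.24 for UP12_29343 (95% interval -1.38 to 0.90, limma adjusted p = 0.858). It was 1.00 for UP12_29344 (-0.10 to 2.10, adjusted p = 0.297) and 1.01 for UP12_29616 (0.01 to 2.01, adjusted p = 0.236). In drought leaves both unigenes lay near the bottom of the scale in both accessions. The values of 1.00 and 1.01 therefore mostly restate the well-watered leaf gaps of -0.95 and -0.99 with the sign reversed. They cannot show whether the response differs between accessions. In roots the differences were 0.24, -0.09 and -0.12 (adjusted p = 1 for each). Over all unigenes 2.42% were called in leaves and 0.319% in roots.

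Levels in well-watered leaves were lower in B128 than in B47 by -0.90 for UP12_29343 (limma adjusted p = 0.111), -0.95 for UP12_29344 (adjusted p = 0.081) and -0.99 for UP12_29616 (adjusted p = 0.0449). None was called, where 6.46% of all unigenes were. In B47 the replicate 2 array was the lowest for all 3 unigenes, and in B128 the replicate 3 array was the highest for all 3.

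In drought leaves UP12_29343 was lower in B128 without overlap (-1.14, limma adjusted p = 0.0851, not called), as were 15.9% of all unigenes. UP12_29344 and UP12_29616 differed by 0.05 and 0.01 there. In roots the B128 minus B47 differences lay between -0.44 and -0.19 in well-watered plants and between -0.56 and -0.14 under drought. None of these was called, where 3.18% of unigenes were in drought leaves, 2.3% in well-watered roots and 2.09% in drought roots.

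The other parts of the ABA pathway were taken from a list of 20 unigenes annotated in the same tables of drought-regulated genes, so their counts are not independent evidence of direction either. Of the 20, 10 were called higher and 6 lower in leaves of B47, and 13 and 5 in leaves of B128. The counts were 11 and 5 for roots of B47 and 10 and 6 for those of B128. The 5 lower in B47 roots were 4 with array weights, a block for replicate number, the floor of 64 or only the arrays compared. With the lowest 25% of unigenes left out, the lower count was 3 in every comparison. With limma's treat method it was 3 in B128 leaves and B47 roots and 2 in B128 roots, and 4 were higher in B47 leaves. Over all unigenes 7.86%, 6.31%, 10.9% and 10.5% were called higher in the same order, and 8.18%, 8.35%, 11.6% and 11.2% lower. The median log2 change of the list was 1.04, 1.49, 1.48 and 1.26, beside 0.08, 0.05, 0.11 and 0.11 for all unigenes.

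The 5 other receptor unigenes did not move together. PYL4 (UP12_27319) was called lower everywhere, by -4.11 and -3.44 in leaves and by -5.26 and -4.60 in roots of B47 and B128 (log2, SE 0.41). The PYL1 unigene UP12_24309 changed by -3.08, -3.79, -2.28 and -2.49 in the same order, and the PYL1 unigene UP12_14257 by -4.35, -4.36, -1.76 and -1.77, all called lower. UP12_14257 fell less in roots than in leaves, by 2.59 in both accessions (limma adjusted p = 1.54e-05 in B47 and 1.49e-05 in B128), the opposite sign to UP12_29616.

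The remaining receptors were not called lower in leaves. PYL2 (UP12_6305) rose in B128 leaves (1.42, limma adjusted p = 0.00183) and was at 0.86 in B47 leaves (adjusted p = 0.0395, not called). It fell in roots (-1.07 in B47, adjusted p = 0.00942, and -1.25 in B128, adjusted p = 0.00328), but near the bottom of the scale. Its intensity in B47 roots was 37.8 to 121 in well-watered plants and 26.3 to 34.7 under drought. In B128 roots it was 41.2 to 78.9 and 18.1 to 26.1. PYR1 (UP12_10118) rose in B128 leaves (1.09, limma adjusted p = 6.77e-06), and was at 0.85 in B47 leaves and 0.13 in both roots, none called. Thus, of the 5 receptors, 3 were lower and 0 higher in B47 leaves, and 3 and 2 in B128 leaves. In the roots of each accession 4 were lower, PYL2 among them, and 0 higher. The shares of all unigenes called are those given above for the list.

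The PP2C unigenes of the list were called higher in all 4 drought comparisons, 5 of 5 each time. Over all unigenes 7.86% and 6.31% were called higher in leaves and 10.9% and 10.5% in roots of B47 and B128. The list came from unigenes that the study had called drought-regulated, so an unresponsive phosphatase would not have been listed. The median change was 2.00 and 2.48 in leaves and 3.88 and 3.49 in roots of B47 and B128. ABI1 (UP12_8966), a clade A phosphatase that the receptors inhibit in Arabidopsis, rose by 3.09, 3.00, 3.88 and 3.49 (limma adjusted p from 2.28e-09 to 1.18e-07). The PP2C3 unigene UP12_3728 rose most, by 4.86, 4.79, 6.40 and 6.97. The SnRK2-type kinase SRK2C (UP12_11396) was higher in B128 leaves (1.56, limma adjusted p = 0.000292) and lower in the roots of B47 (-3.23) and B128 (-1.17), with 0.59 in B47 leaves (adjusted p = 0.113). All 3 NCED unigenes, for the enzyme that makes the ABA precursor xanthoxin, were called higher in every comparison. The ABF2 unigenes were too, except UP12_12562 in B128 roots (0.96, adjusted p = 0.00061, under the fold threshold).

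**Figure D4:**
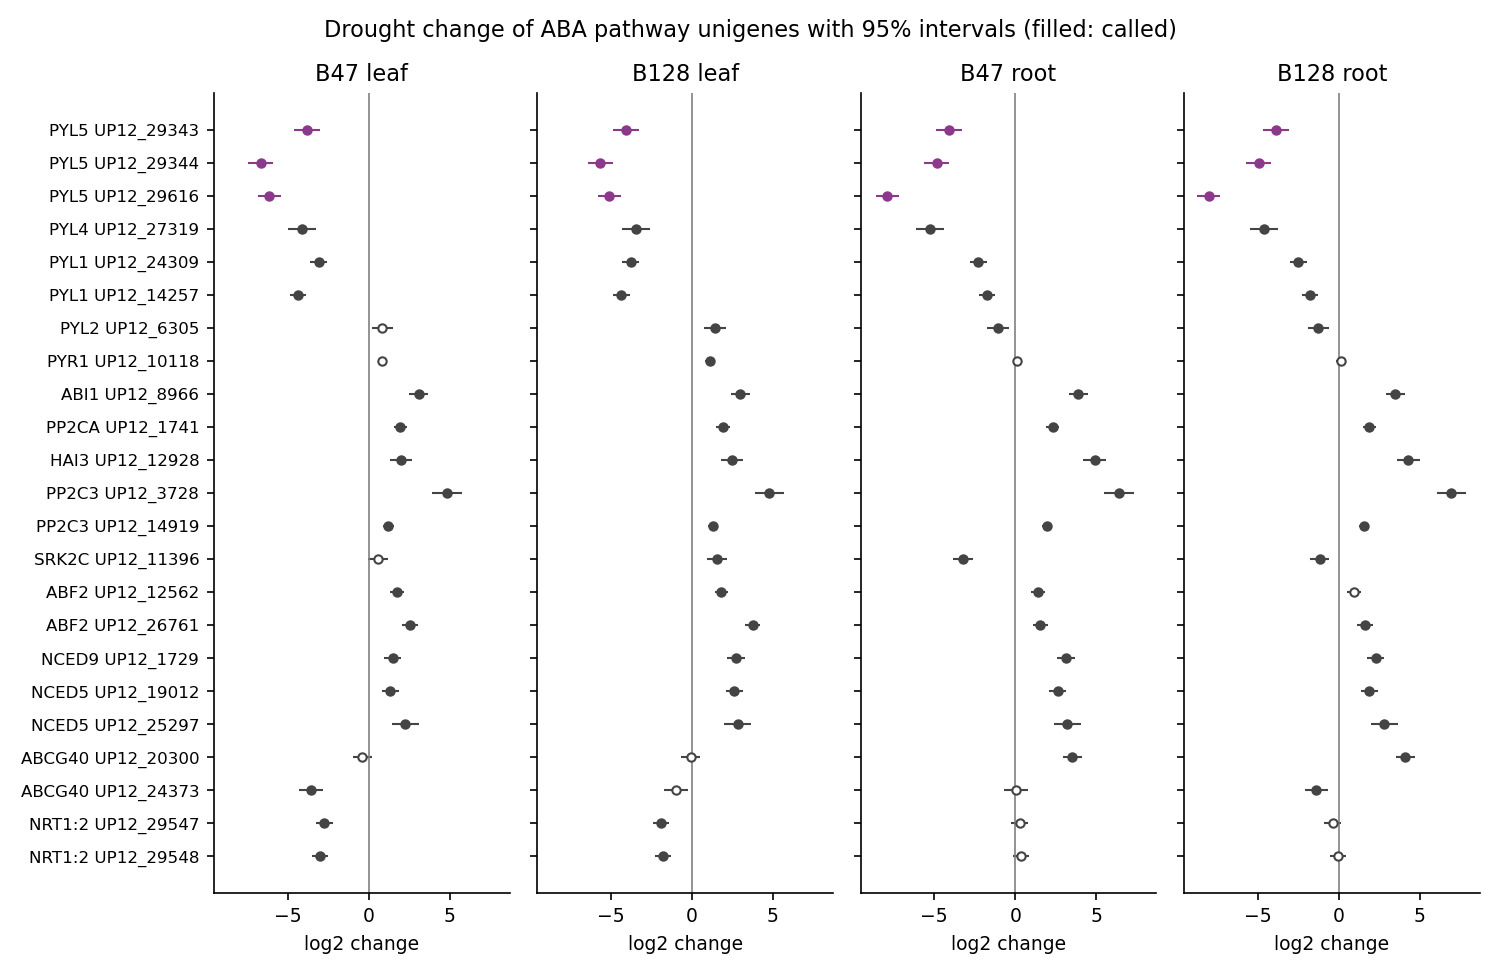
Log2 drought change of the 3 PYL5 unigenes (purple) and the 20 other ABA pathway unigenes (grey), 1 panel per accession and organ. Points are limma estimates with 95% intervals, filled where called. The PYL5, PYL4 and PYL1 unigenes lie left of 0 in every panel, and the phosphatases ABI1, PP2CA, HAI3 and PP2C3 lie right of it.

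Across the 24 arrays the log2 values of UP12_29343 and UP12_29344 correlated at r = 0.970, those of UP12_29343 and UP12_29616 at 0.961 and those of UP12_29344 and UP12_29616 at 0.955. The arrays are shared, and for all 3 unigenes they form separate sets by treatment, so these r include that separation. With the group means taken off, r was 0.650, 0.559 and 0.329. Whether the probes of 1 of these unigenes also capture transcripts of another was not tested, and their sequences were not used here. The methods state that some highly similar unigenes on the array share probes.

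The unigene most like UP12_29616 over the 24 arrays was the PYL4 unigene UP12_27319 (Pearson r = 0.986), followed by UP12_10552, annotated as an uncharacterized protein (0.982), and UP12_20259, annotated as a nodulin MtN21/EamA-like transporter (0.963). Most like UP12_29344 were UP12_29343 (0.970), UP12_22183, annotated as EID1-like F-box protein 2 (0.966), and UP12_27320, which the tables used do not annotate (0.966). Most like UP12_29343 were UP12_2477, not annotated in the tables used (0.973), the uncharacterized UP12_120 (0.973), and UP12_10552 (0.972). UP12_10552 was thus near the top for both UP12_29616 and UP12_29343, and its own drought changes were -5.82 and -5.02 in leaves and -6.67 and -6.57 in roots of B47 and B128.

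UP12_17989, annotated by the Arabidopsis locus AT5G52300, was among the 3 most opposite unigenes for every PYL5 unigene (r = -0.965, -0.966 and -0.975 for UP12_29343, UP12_29344 and UP12_29616). It rose by 7.07 and 6.67 in leaves and by 8.29 and 7.79 in roots of B47 and B128. The unigene most opposite to UP12_29616 was UP12_21526, annotated as the homeobox-leucine zipper transcription factor ATHB-12 (r = -0.983), which rose by 5.65 and 5.82 in leaves and by 8.50 and 8.05 in roots.

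For UP12_29343 the other opposite unigenes were UP12_29552, a pullulanase 1 (r = -0.967), and UP12_17327, a pullulanase-like starch debranching enzyme (-0.963). For UP12_29344 they were the unannotated UP12_22190 (-0.974) and UP12_7964, annotated as At5g50110 (-0.973). For UP12_29616 the third was UP12_11843, annotated as a core-2/I-branching glycosyltransferase (-0.973). These correlations describe the same arrays and carry no test.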

How the data were processed

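RNA of leaves and roots was labelled with Cy3 and hybridised to custom NimbleGen arrays, 1 sample per array. The authors extracted probe intensities with NimbleScan, applied quantile normalization between arrays and summarised 4 probes per unigene with RMA (versions not given in the sources used here). The deposited intensity is linear and covers 29471 unigenes and 8 entries of yeast controls. A change shared by most transcripts would not appear after quantile normalization.

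The intensities were log2-transformed without a pseudocount (lowest value 4.52). The 24 arrays were fitted with limma 3.58.1 (R 4.3.3), with a mean for each group (residual degrees of freedom 16, prior 2.88) and Benjamini-Hochberg adjustment over 29471 unigenes within each of 16 comparisons. Calls needed a change of 2-fold or more and an adjusted p of at most 0.01, the thresholds of the study, whose methods name no test for the arrays. Responses of 2 unigenes were compared by exact permutation of arrays between treatments within accession. The number of arrays limits the precision. The scripts were tested on simulated data, and Python 3.11.15 with matplotlib 3.10.9 drew the plots.

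The named unigenes were the 3 PYL5 unigenes, a list of 20 ABA pathway unigenes, and for each PYL5 unigene the 3 with the highest and the 3 with the lowest Pearson r. The members and lists were chosen with earlier results of these data known. Alternatives were the arrays in the fit, a replicate block, a random block of leaf and root arrays of the same accession, treatment and number (assumed to share a pot, which the labels do not state), array weights, a filter on the lowest 25% of unigenes, equal medians, quantile normalization within organs, yeast control scaling, limma's treat method at a 2-fold limit, and the omission of each array. A floor of 64 was added after seeing the data.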

Additional observations from a re-analysis of the deposited data

Results flagged for a closer look

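The drought response of UP12_29616 differed between organs in both accessions by the interaction test, which is why it is listed here. The B47 result is narrow: it was lost under array weights (adjusted p = 0.0166) and limma's treat method (0.514), and in 9 of 12 omissions of an array. The change in roots minus the change in leaves was -1.77 in B47 (limma adjusted p = 0.00805) and -2.90 in B128 (adjusted p = 0.000141) on the log2 scale. Roots stood above leaves by 3.21 in B47 and 3.77 in B128 on the well-watered arrays, and by 1.44 and 0.87 on the drought arrays. The part of the scale's lower end in the leaf change was not tested. With the floor of 64 the values were -3.14 and -3.77. Most drought values were then 64, so these mostly restate the well-watered gap and cannot decide the question. Dixon's test for a single outlying array was not run, since it was not used for groups of 3.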

How the results depend on the processing

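The 12 drought falls of the PYL5 unigenes were called under every alternative that gave a value, with log2 changes from -8.42 to -3.37 and a highest adjusted p of 0.0018. Of 48 results (3 unigenes in 16 comparisons), 22 were called and 7 crossed the threshold under some alternative. No called result changed sign, 17 of the 22 stayed called throughout, and 13 of the 26 uncalled results changed sign somewhere. The low filter leaves out UP12_29616. The replicate numbers did not pair drought with well-watered samples. Deviations of same-numbered drought and well-watered arrays correlated at -0.396 to 0.119, and 5 of 12 drought arrays correlated best with their own number. Over all pairs of groups, same-numbered arrays correlated at -0.396 to 0.572 (20 of 84 over 0.1). Between B47 and B128 roots, replicates 1 to 3 correlated at 0.393, -0.106 and 0.334 well-watered and at -0.219, 0.42 and 0.572 under drought. The replicate block lost 1 PYL5 call, the root minus leaf response of UP12_29616 in B47 (-1.77, adjusted p = 0.0115), and 1 of the 5 lower ABA list calls in B47 roots, and no other count in the list moved. That result was also lost with array weights (-0.92, adjusted p = 0.0166) and with limma's treat method at a 2-fold limit (-1.77, adjusted p = 0.514), and ranged from -2.04 to -1.55 with 1 array left out.

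The treat method ended the root minus leaf calls of UP12_29343 in well-watered B128 (1.26, adjusted p = 0.714) and drought B128 (1.45, 0.444), of UP12_29344 in well-watered B128 (1.54, 0.269) and of UP12_29616 in drought B47 (1.44, 0.365). Yeast control scaling ended those of UP12_29343 in well-watered B128 (1.09, adjusted p = 0.0164) and drought B128 (0.84, 0.0555) and of UP12_29616 in drought B47 (0.75, 0.0771). It moved the median of all unigenes by 0.32 and 0.04 in leaves and by -0.31 and -0.40 in roots of B47 and B128, and by -0.69 and -0.62 for drought root minus leaf. Fits of only the arrays compared ended the well-watered B128 calls of UP12_29343 (1.26, adjusted p = 0.0434) and UP12_29344 (1.54, 0.0197), and called the root minus leaf response of UP12_29344 in B47 (1.81, 0.00318). Array weights (not fully converged) ended that UP12_29343 call (1.16, adjusted p = 0.0566), and called the response of UP12_29344 in B47 (2.32, 4.83e-06) and the lower level of UP12_29616 in B128 than in B47 drought roots (-1.25, 5.54e-06). The floor of 64 ended the well-watered B128 call of UP12_29343 (1.26, adjusted p = 0.0113) and the drought B47 call of UP12_29616 (0.0695, 0.899), and turned the leaf response of UP12_29616 minus that of UP12_29343 from -1.67 to 0.0819. No cause was tested.

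With 1 array left out, the root minus leaf difference of UP12_29343 ranged from 0.97 to 1.68 in well-watered B128 and from 1.28 to 1.57 in drought B128. That of UP12_29344 ranged from 1.20 to 1.94 in well-watered B128, and its root minus leaf response in B47 from 1.62 to 2.14, called without leaf well-watered replicate 2 (adjusted p = 0.00509). In the ABA list, 3 unigenes were lower in each comparison with the lowest 25% left out. With treat, 4 were higher in B47 leaves, 3 lower in B128 leaves and B47 roots, and 2 lower in B128 roots, where fits of only the arrays compared, or without well-watered replicate 1, gave 3. Over all unigenes treat made 1216 to 1947 drought calls, against 4320 to 6633. Between accessions it made 184 and 12 response calls in leaves and roots (714 and 94 before), and between organs 1133 and 1184 (4782 and 4821). Signal near the bottom of the scale limits how far the falls of UP12_29616 and, in leaves, UP12_29344 can be read.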

Other observations

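Of the 4 ABA transport unigenes, which the text above does not describe, all had a drought change called higher in roots than in leaves in B47 (3.00 to 3.89, limma adjusted p from 6.62e-07 to 1.78e-05), and 3 in B128 (1.55 to 4.20). The other, UP12_24373, was at -0.40 in B128 (adjusted p = 0.564). Over all unigenes, 7.41% in B47 and 8.44% in B128 had a drought change called higher in roots than in leaves. In Arabidopsis ABCG40 is an importer of ABA. Its unigene UP12_20300 rose in roots under drought by 3.52 in B47 (log2, limma adjusted p = 7.13e-09) and 4.13 in B128 (adjusted p = 1.03e-09), and was at -0.38 and -0.08 in leaves, not called. The ABCG40 unigene UP12_24373 fell in B47 leaves (-3.56, limma adjusted p = 1.71e-07) and B128 roots (-1.39, adjusted p = 0.00236). The NRT1:2 unigenes UP12_29547 and UP12_29548 fell in leaves, by -2.73 and -3.01 in B47 and by -1.91 and -1.77 in B128, and neither was called in roots. These unigenes come from the tables of drought-regulated genes, so their directions are not independent evidence.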
